A study of Mus musculus with 18 samples.

Results

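The protocadherins are cadherin-related adhesion proteins of the cell surface, and their genes were read here as every entry whose name begins with Pcdh followed by a digit or by a, b or g. The rule gave 27 of 27180 entries in hippocampi, 29 of 26293 in neurospheres, 70 of 54672 in cortices and 70 of 54532 in Rnf2 hippocampi. The 70 entries of the cortical and Rnf2 tables were 12 non-clustered genes and 58 isoforms of the alpha, beta and gamma clusters, 14, 22 and 22 of them (the name Pcdha11 stands for 2 of the 14). In the tables of hippocampi and neurospheres all alpha and gamma isoforms were a single joined entry, so that 14 of 27 and 15 of 29 entries were clustered. Several non-clustered names had more than 1 entry there, and the entry with the highest mean was used.

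RNA was sequenced from mouse tissue or cells of postnatal day 0. Kdm2b Emx1-∆CxxC cKO animals lack the exon that encodes the CxxC zinc finger of KDM2B, the part that binds unmethylated CpG DNA, and the truncated gene is still transcribed. Their controls carried the floxed Kdm2b allele in the heterozygous or homozygous state (fl/+ or fl/fl), which the labels do not tell apart. Emx1-Cre drives deletion in progenitors of the dorsal telencephalon, so vessels, meninges, microglia and incoming interneurons keep the intact gene. Hippocampi were compared between 3 control and 3 cKO libraries, cortices between 2 and 2, and neurospheres, which are hippocampal neural progenitors grown in suspension with FGF2 and EGF, between 2 and 2. In the fourth comparison, hippocampi of 2 controls with floxed Rnf2 (fl/+ or fl/fl) were set against those of 2 Rnf2 Emx1-cKO animals, where Rnf2 encodes RING1B, the ubiquitin ligase of the Polycomb repressive complex PRC1 to which KDM2B belongs. The labels do not say that libraries came from separate animals or cultures, so the p-values measure the spread between these libraries. In bulk RNA, fewer cells of a type and less RNA per cell cannot be told apart.

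Clustered protocadherins are chosen cell by cell. Each alpha and gamma isoform joins its own variable exon, read from its own promoter, to constant exons shared by the cluster, whereas each beta isoform is a lone exon, and promoter choice depends on CTCF and cohesin. The isoform mix gives a neuron an identity that is used for self-avoidance of its branches and for synaptic wiring. Non-clustered members include the delta1 group (Pcdh1, Pcdh7, Pcdh9 and Pcdh11x) and the delta2 group (Pcdh8, Pcdh10, Pcdh17, Pcdh18 and Pcdh19), which act in sorting of cells, axon growth and synapses of the developing brain.

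The unit throughout is FPKM, a fragment count scaled by transcript length and by the mapped fragments of the library, and the 4 tables were normalized separately. An entry was tested when its mean was at least 0.5 FPKM, on log2(FPKM + 1), which understates changes of low genes, and it was called where the log2 fold change exceeded 0.4 in either direction with an unadjusted limma p under 0.05. How many of all tested entries had every cKO library on the same side of the controls was not counted. Such separation is therefore only described. The cortical values imply about 18700000 to 22040000 fragments per library and the Rnf2 values 14960000 to 16520000. The study's methods state a general depth for its RNA-seq libraries. The depth of each hippocampal and neurosphere library cannot be recovered from the values. Neurosphere control 1 stood apart, with 29.3% of its FPKM total in entries without a name and 15.9% in Mir6236, against at most 1.95% and 1.37% in the other 3. Xist and Ddx3y divided the libraries by sex unevenly: hippocampal cKO 1, neurosphere cKO 1 and cortical control 1 each differed from the rest of their comparison. The targeted genes did not check the labels, since a value over the whole gene still counts the undeleted exons. Kdm2b was 31.9, 28.3 and 28.1 FPKM in control and 28.2, 27.3 and 26.2 FPKM in cKO hippocampi, 22.2 and 21.9 against 22.5 and 23.7 FPKM in neurospheres and 15.7 and 16.9 against 14.9 and 14.7 FPKM in cortices. Rnf2 was 32.3 and 30.8 FPKM in control and 28.5 and 27.8 FPKM in Rnf2 cKO hippocampi, and no difference was called for either gene.

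The promoter of 3 of the non-clustered members that were called is shown because the deleted domain of KDM2B reads CpG. Pcdh20 was called only in Rnf2 hippocampi, where that domain was not deleted. Each run is the 250 bases before the RefSeq start (GRCm38.p6, minus strand), 5′ to 3′, with each CpG in capitals. The windows are chrX:133688994-133689243 for Pcdh19, chr14:93890680-93890929 for Pcdh9 and chr14:88471397-88471646 for Pcdh20.
Pcdh19: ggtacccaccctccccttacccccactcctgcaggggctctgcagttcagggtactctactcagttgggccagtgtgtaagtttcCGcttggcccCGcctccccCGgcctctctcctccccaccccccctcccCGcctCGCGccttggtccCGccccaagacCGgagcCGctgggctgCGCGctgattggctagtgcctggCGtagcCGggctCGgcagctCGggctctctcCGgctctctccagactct
Pcdh9: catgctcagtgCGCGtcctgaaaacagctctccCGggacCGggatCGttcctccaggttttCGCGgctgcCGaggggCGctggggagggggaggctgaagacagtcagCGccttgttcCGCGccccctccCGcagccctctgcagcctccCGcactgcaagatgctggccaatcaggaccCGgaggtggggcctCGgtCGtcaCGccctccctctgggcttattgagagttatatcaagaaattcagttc
Pcdh20: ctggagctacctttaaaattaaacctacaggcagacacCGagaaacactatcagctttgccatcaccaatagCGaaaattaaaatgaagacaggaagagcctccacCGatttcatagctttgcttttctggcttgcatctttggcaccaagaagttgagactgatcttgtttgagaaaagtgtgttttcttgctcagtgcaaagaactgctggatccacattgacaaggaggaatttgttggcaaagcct
They hold 16, 18 and 3 CpG. Pcdh15, also called, is not shown because its RefSeq window on chromosome 10 starts at 73821617, inside the gene as the cortical table gives it, from 73099342 to 74649737. RefSeq promoters of 300 bases, which add the 50 bases after the start, were found for 9 of the 12 non-clustered genes, in 10 entries. Pcdh1, Pcdh11x and Pcdh12 had no entry, so Pcdh1 and Pcdh11x, also called, are not shown. Pcdh17 had 26 CpG, Pcdh10 had 24, Pcdh18 had 23, Pcdh9 had 18 in the window shown, Pcdh19 had 18, Pcdh8 had 14, Pcdh7 had 11, Pcdh15 had 8 and Pcdh20 had 4. Of all 32851 promoters in the table, 16.9% held at least as many as Pcdh17, 29.7% at least as many as Pcdh19 and 68.6% at least as many as Pcdh20. The median was 7. These counts describe the sequence and were not tested against expression.

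In cKO hippocampi, Pcdh19 was the sole protocadherin called. Of 25 tested entries 1 was lower and 0 were higher, beside 2.25% of all 13446 tested entries lower and 3.89% higher. Pcdh19, an X-linked delta2 member that binds N-cadherin and whose mutations cause an epilepsy of girls, lies on chromosome X from 133582860 to 133688987, minus strand, in GRCm38. It was 15.6, 16.3 and 15.0 FPKM in controls and 11.9, 10.8 and 10.5 FPKM in cKO libraries. All 3 cKO libraries lay below the controls. The mean fell by 29.2%, with a log2 fold change of −0.46 (SE 0.069, limma, adjusted p = 0.00626). The cKO library with female expression of Xist, replicate 1, was the highest of the 3, and without it the log2 fold change was −0.51 (limma, adjusted p = 0.0117).

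**Figure D1:**
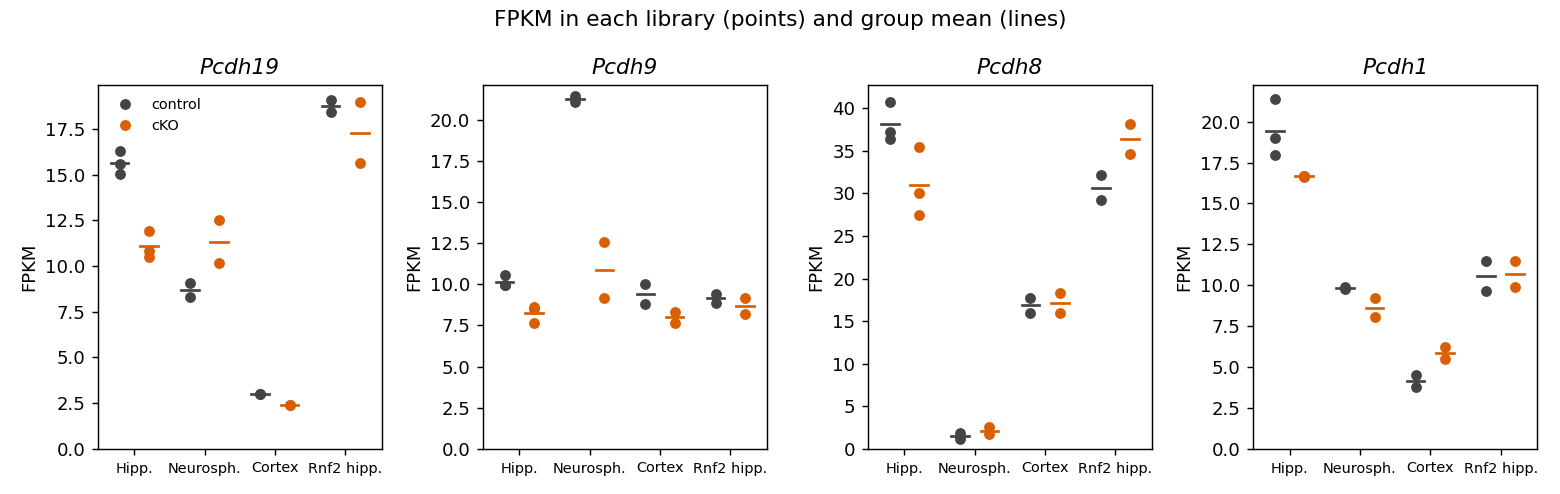
FPKM of Pcdh19, Pcdh9, Pcdh8 and Pcdh1 in each library (points, controls dark and cKO orange) of the 4 comparisons on the x axis, with group means as lines. Pcdh19 separates in cKO hippocampi (10.5 to 11.9 against 15.0 to 16.3 FPKM) and Pcdh9 in cKO neurospheres (9.16 to 12.6 against 21.1 to 21.4 FPKM). Groups also do not overlap for Pcdh9, Pcdh8 and Pcdh1 in hippocampi and for Pcdh19 and Pcdh1 in neurospheres. The same holds for Pcdh19, Pcdh9 and Pcdh1 in cortices and for Pcdh8 in Rnf2 hippocampi.

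Among the other non-clustered members, Pcdh9, Pcdh8 and Pcdh1 lay lower in every cKO hippocampus without passing the fold threshold. Pcdh9, a delta1 member, was 10.5, 9.95 and 9.93 FPKM in controls and 7.65, 8.60 and 8.49 in cKO libraries (log2 fold change −0.27, SE 0.073, limma, adjusted p = 0.0551). Pcdh8, also called arcadlin, a delta2 member induced by neuronal activity, had the highest level of the non-clustered genes there. It was 37.2, 40.8 and 36.4 FPKM in controls and 35.5, 27.5 and 30.0 FPKM in cKO libraries (log2 fold change −0.30, SE 0.088, limma, adjusted p = 0.0723). Pcdh1 was 19.02, 21.4 and 17.98 FPKM in controls and 16.6, 16.7 and 16.7 FPKM in cKO libraries (log2 fold change −0.21, SE 0.069, limma, adjusted p = 0.101). Pcdh12, a protocadherin of endothelial cells, was also lower in each cKO library, at 0.712, 0.666 and 0.797 against 0.586, 0.665 and 0.470 FPKM (log2 fold change −0.13), with an adjusted p of 0.542 (limma).

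The other non-clustered members overlapped between groups. Pcdh10, a delta2 member that recruits regulators of actin, was 12.7, 13.3 and 13.0 FPKM in controls and 13.6, 12.7 and 12.6 FPKM in cKO libraries, a log2 fold change of −0.0014 (SE 0.062). Pcdh17 stood at 13.5, 10.9 and 11.8 against 11.3, 12.2 and 11.2 FPKM, Pcdh20 at 10.2, 14.4 and 10.96 against 10.6, 10.8 and 16.0 FPKM, and Pcdh7 at 10.6, 7.06 and 10.4 against 8.67, 9.82 and 7.64 FPKM. Pcdh15, a tip-link protein of hair cells, was 3.74, 5.01 and 3.58 FPKM in controls and 4.03, 4.38 and 5.49 FPKM in cKO libraries (log2 fold change 0.14). Pcdh11x was 1.76, 1.62 and 1.80 against 1.39, 1.31 and 2.01 FPKM (−0.10), and Pcdh18 had a log2 fold change of −0.07. Among all 25 tested entries 20 had a negative log2 fold change, with a median of −0.06, beside a median of 0.0084 and 47.8% negative over all tested entries. The members' median ran from −0.11 without control 2 to −0.02 without control 3, where 15 were negative, and 16 were negative after rescaling to equal totals.

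The joined entry of the alpha and gamma clusters was not called in hippocampi. It was 320.9, 318.2 and 331.7 FPKM in controls and 331.5, 332.5 and 299.7 FPKM in cKO libraries, and ranked 144 to 155 among 23138 entries. The log2 fold change was −0.01 (SE 0.056, limma, adjusted p = 0.929). The 12 tested beta entries had log2 fold changes between −0.18 and 0.23, and none was called. Pcdhb10 to Pcdhb11 (joined) was 3.47, 5.21 and 4.27 FPKM in controls and 3.76, 4.40 and 4.29 FPKM in cKO libraries. Pcdhb13 to Pcdhb22 (joined) was 24.1, 23.2 and 25.3 FPKM in controls and 24.7, 24.2 and 22.9 FPKM in cKO libraries. That entry holds 9 names, and Pcdhb14 had an entry of its own. Pcdhb2 was lower in each cKO library, at 1.55, 1.47 and 1.44 against 0.914, 1.41 and 1.33 FPKM (log2 fold change −0.17), with an adjusted p of 0.451 (limma). Pcdhb1, which reached at most 0.0238 FPKM, was not tested.

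Levels of cell type markers moved with genotype in the same hippocampi. Of 8 progenitor markers 6 were called higher, with their summed level at 262.5 to 298.6 FPKM in controls and 390.4 to 424.1 FPKM in cKO libraries. The 6 general neuronal markers summed to 2082 to 2213 FPKM in controls and 1668 to 1948 FPKM in cKO libraries, with none called, and 2 of 7 glutamatergic markers were called lower. Of 4 microglial markers 2 were called higher, as were 2 of 3 tested choroid plexus markers, with 0 lower in either list. Their part in the Pcdh19 result was not tested.

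**Figure D2:**
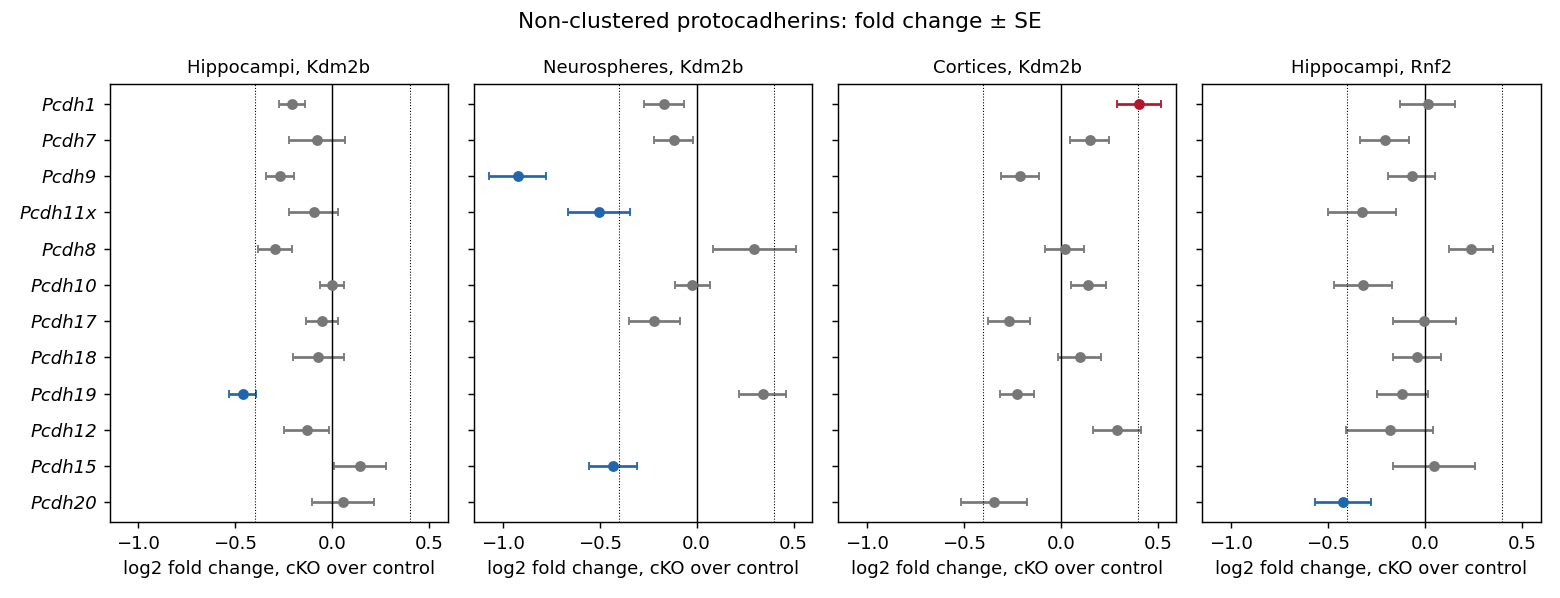
Log2 fold change (cKO over control, x axis) ± SE of the 12 non-clustered protocadherins (y axis) in each comparison; blue was called lower, red higher, grey not called, and dotted lines mark 0.4 in size. Pcdh19 is called in hippocampi alone, Pcdh9, Pcdh11x and Pcdh15 in neurospheres, Pcdh1 in cortices and Pcdh20 in Rnf2 hippocampi; genes under 0.5 FPKM have no point.

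In cKO neurospheres 9 of 22 tested protocadherin entries were called lower and 0 higher, beside 13.2% of all 12227 tested entries lower and 11.4% higher. Of the 9, 6 were beta entries and 3 non-clustered genes, and 5 had an adjusted p under 0.05 (limma). The median log2 fold change of the 22 was −0.43, beside −0.01 over all tested entries, and 20 of 22 were negative. Without control 1, the library that stood apart, the members' median was −0.22 with 18 of 22 negative, and without control 2 it was −0.59. The FPKM totals were 855276 and 454886 in controls and 452580 and 522964 in cKO libraries. Rescaling to the same FPKM total therefore scaled control 1 down. Under it the median over all entries moved up by 0.311 to 0.30. The members' median was then −0.16, with 14 of 22 negative and 2 called lower, Pcdhb7 and Pcdhb9, beside 2.13% of all entries. Median-ratio scaling gave a members' median of −0.42, with 20 of 22 negative and the same 9 called lower, beside 13% of all entries.

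Pcdh9 was the non-clustered member with the largest fall. It was 21.1 and 21.4 FPKM in controls and 12.6 and 9.16 FPKM in cKO libraries, both below the controls. The mean fell by 48.8%, with a log2 fold change of −0.92 (SE 0.148, limma, adjusted p = 0.0103), and after rescaling to equal totals the log2 fold change was −0.59 without a call. Pcdh11x, an X-linked delta1 member, was 16.2 and 14.7 FPKM in controls and 12.6 and 8.90 FPKM in cKO libraries (log2 fold change −0.50, limma, adjusted p = 0.0760), and Pcdh15 was 32.5 and 34.9 against 27.8 and 22.0 FPKM (log2 fold change −0.43, limma, adjusted p = 0.0589). Pcdh11x was called in the absence of cKO 1 but of no other library, and Pcdh15 was not called without control 2 (−0.38) or without cKO 2 (−0.27). Without cKO 2 the log2 fold change of Pcdh11x was −0.28.

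Pcdh19 had a positive log2 fold change. It was 9.10 and 8.32 FPKM in controls and 12.5 and 10.2 FPKM in cKO libraries, both above the controls, with a log2 fold change of 0.34 (SE 0.123, limma, adjusted p = 0.1003) that was not called. Here the cKO library with male expression, replicate 1, was the highest, and without it the log2 fold change was 0.21 (limma, adjusted p = 0.254). Without cKO 2 it was 0.48 and called (limma, adjusted p = 0.0456). Pcdh10 had the highest level of the non-clustered genes in these cultures, at 76.6 and 73.8 FPKM in controls and 77.8 and 70.4 FPKM in cKO libraries (log2 fold change −0.02). Pcdh1 was 9.89 and 9.74 FPKM in controls and 9.21 and 8.07 FPKM in cKO libraries (−0.17), not called, nor were Pcdh7, Pcdh17 and Pcdh8. Pcdh20, at 0.414 and 0.292 against 0.169 and 0.214 FPKM, was not tested, nor were Pcdh12 and Pcdh18, at most 0.487 FPKM.

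Within the beta cluster the fall was uneven. Pcdhb9 had the largest change, from 6.06 and 4.94 FPKM in controls to 0.925 and 1.32 FPKM in cKO libraries, where the mean fell by 79.6% (log2 fold change −1.62, SE 0.164, limma, adjusted p = 0.00280). Pcdhb7 was 2.96 and 2.56 FPKM in controls and 0.480 and 1.02 in cKO libraries (log2 fold change −1.12, limma, adjusted p = 0.0147). The joined entry Pcdhb2 to Pcdhb3 was 6.72 and 4.27 FPKM in controls and 2.22 and 1.85 in cKO libraries (log2 fold change −1.07, limma, adjusted p = 0.0179), and Pcdhb4 was 4.64 and 2.60 against 1.36 and 0.978 FPKM (log2 fold change −1.06, limma, adjusted p = 0.0317). These 4 entries and Pcdh9 were called without each of the 4 libraries in turn.

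Pcdhb10 and Pcdhb11 were called with less room. Pcdhb10 was 8.65 and 6.01 FPKM in controls and 4.68 and 3.04 FPKM in cKO libraries (log2 fold change −0.78, limma, adjusted p = 0.0559), and Pcdhb11 was 5.45 and 3.07 against 2.56 and 2.35 FPKM (log2 fold change −0.57, limma, adjusted p = 0.130). Without control 1, the library that stood apart, neither was called, at −0.55 and −0.24. Pcdhb10 was also not called without cKO 2 (−0.53), nor Pcdhb11 without cKO 1 (−0.61) or cKO 2 (−0.52). Pcdhb5, Pcdhb6, Pcdhb8, Pcdhb12 and Pcdhb14 had log2 fold changes between −0.47 and −0.34 and were not called. Pcdhb1, at 0 in all 4 libraries, and Pcdhb13 had means under the minimum. Pcdhb13 was 0.727 and 0.625 FPKM in controls and 0.214 and 0.313 FPKM in cKO libraries. Without the filter on low values Pcdhb13 was called lower and Pcdhb11 was not.

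The 2 most abundant clustered entries had the smallest log2 fold changes in size of the 13 tested. They join 37 and 8 names, so each pools many isoforms, and a change of a single isoform cannot be read from them. The joined alpha and gamma entry was 378.4 and 343.2 FPKM in controls and 322.4 and 323.2 FPKM in cKO libraries (log2 fold change −0.16, SE 0.111, limma, adjusted p = 0.342), and Pcdhb15 to Pcdhb22 (joined) was 35.8 and 38.3 against 34.6 and 32.1 FPKM (log2 fold change −0.15, SE 0.086, limma, adjusted p = 0.264). In both, the cKO libraries lay below the controls by less than the threshold. After rescaling to equal totals both were at 0.20, below the median of 0.30 over all entries under that scaling, without a call.

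**Figure D3:**
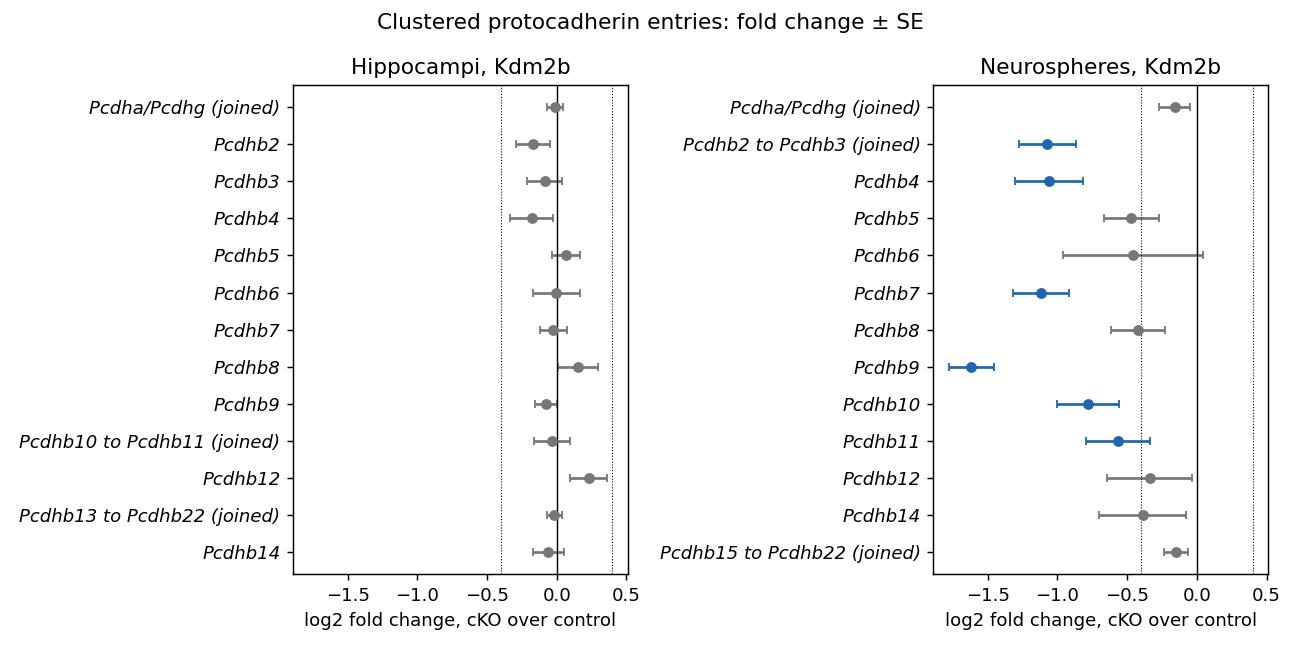
Log2 fold change (cKO over control, x axis) ± SE of the tested clustered entries (y axis) in hippocampi (left) and neurospheres (right), with colours and dotted lines as for the non-clustered genes. In hippocampi the entries lie between −0.18 and 0.23, and in neurospheres between −1.62 and −0.15.

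Glial, neuronal and progenitor markers moved in the same neurospheres. Of 4 astrocyte markers 3 were called lower, and their sum was 536.5 to 555.4 FPKM in controls and 389.6 to 420.1 FPKM in cKO libraries. Of 4 markers of the oligodendrocyte lineage 2 were called lower, Pdgfra from 43.8 and 45.9 to 12.7 and 10.4 FPKM and Sox10 from 9.36 and 12.2 to 4.21 and 5.33 FPKM, while the sum of the list was 2253 to 2343 in controls and 2412 to 2473 FPKM in cKO libraries. Of 5 tested neuronal markers 3 were called lower and 1 higher. Of 7 tested progenitor markers 2 were called higher, Vim and Nes, and 2 lower, Hes1 and Hes5, and the sum of the list was 1591 to 1701 FPKM in controls and 2785 to 3830 FPKM in cKO libraries. Of 3 tested GABAergic markers Dlx1 and Dlx2 were called higher, from at most 0.126 FPKM in controls to at least 2.31 FPKM in cKO libraries. Their part in the protocadherin results was not tested.

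The difference between the hippocampal and the neurosphere effect was itself tested for 18 members present in both tables, and 5 had an adjusted p under 0.05 (limma), beside 26.9% of all 11075 entries tested. The hippocampal effect of Pcdh19 was lower than the neurosphere effect by a log2 difference of −0.80 (SE 0.132, limma, adjusted p = 0.00147). For Pcdh9 (0.65, adjusted p = 0.0103), Pcdhb4 (0.88, adjusted p = 0.0449), Pcdhb7 (1.09, adjusted p = 0.00255) and Pcdhb9 (1.54, adjusted p = 8.29e-05) the neurosphere effect was the lower. After rescaling to equal totals 1 member passed, Pcdhb9. Pcdhb4 no longer passed in 7 of 10 fits that left out 1 library, namely each hippocampal control, hippocampal cKO 2 and 3, neurosphere control 1 and neurosphere cKO 2, whereas Pcdh19, Pcdh9, Pcdhb7 and Pcdhb9 passed in all 10.

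In cKO cortices 1 of 59 tested protocadherins was called higher and 0 lower, beside 4.73% and 2.28% of all 15698 tested genes. The gene was Pcdh1, a delta1 member studied as an adhesion protein of airway epithelium, at 4.54 and 3.797 FPKM in controls and 6.20 and 5.47 FPKM in cKO libraries. Both cKO libraries lay above the controls, with a log2 fold change of 0.40 (SE 0.112, limma, adjusted p = 0.254) just past the threshold, and it was not called without control 2 (0.30) or without cKO 1 (0.33). Pcdh12, the endothelial member, was 0.749 and 0.691 FPKM in controls and 1.17 and 1.04 FPKM in cKO libraries (log2 fold change 0.29, limma, adjusted p = 0.435), not called.

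Markers of vessels and meninges were higher in the same cortical cKO libraries. Of 10 endothelial markers 4 were called higher, with a sum of 43.8 to 46.3 FPKM in controls and 68.9 to 70.9 FPKM in cKO libraries. All 7 tested meningeal markers were called higher, with a sum over the 8 of the list of 1.40 to 2.09 in controls and 20.9 to 30.0 FPKM in cKO libraries. Other lists rose too, with 3 of 5 blood markers and 2 of 4 microglial markers called higher and 0 lower. The blood sum was 435 to 453.6 FPKM in controls and 623.1 to 711.3 FPKM in cKO libraries. Their part in the values of Pcdh1 and Pcdh12 was not tested.

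Pcdh19, Pcdh9, Pcdh17 and Pcdh20 lay lower in both cortical cKO libraries and were not called. Pcdh19 was 2.97 and 2.99 FPKM in controls and 2.38 and 2.42 FPKM in cKO libraries (log2 fold change −0.23, limma, adjusted p = 0.393). Pcdh9 was 8.78 and 10.04 against 7.65 and 8.32 FPKM (−0.21), Pcdh17 was 2.27 and 2.22 against 1.55 and 1.84 FPKM (−0.27), and Pcdh20 was 1.26 and 0.771 against 0.612 and 0.545 FPKM (−0.34). Pcdh10, at 4.26 and 4.41 against 4.62 and 5.17 FPKM (0.14), lay higher in both cKO libraries without a call. Pcdh8 stood at 16.0 and 17.8 FPKM in controls and 18.3 and 16.0 FPKM in cKO libraries and overlapped. Pcdh11x, at 0.303 and 0.240 against 0.172 and 0.330 FPKM, and Pcdh15, at 0.151 and 0.146 against 0.118 and 0.184 FPKM, were not tested.

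The effect on Pcdh1 differed between hippocampi and cortices by a log2 difference of −0.61 (SE 0.127, limma, adjusted p = 0.0384), the sole call among 19 members tested, beside 1.61% of 10698 entries. Leaving out single libraries took that call away in 8 of 10 cases. Pcdh19 had a log2 difference of −0.24 (limma, adjusted p = 0.356).

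In Rnf2 cKO hippocampi 1 of 63 tested protocadherins was called lower and 0 higher, beside 1.85% and 2.87% of all 15770 tested genes, and no gene of that table had an adjusted p under 0.05 (limma). The gene was Pcdh20, on chromosome 14 from 88464743 to 88471396, minus strand, in GRCm38. It was 8.32 and 8.92 FPKM in controls and 6.89 and 5.53 FPKM in cKO libraries, with a log2 fold change of −0.42 (SE 0.142, limma, adjusted p = 0.679), and it was not called without either control or without cKO 2. In the same libraries 4 of 7 tested meningeal markers were called lower, with a sum over the list of 30.8 to 31.0 FPKM in controls and 15.2 to 22.0 FPKM in cKO libraries. Their part in the value of Pcdh20 was not tested.

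Pcdh19 overlapped between the Rnf2 groups, at 19.1 and 18.4 FPKM in controls and 18.95 and 15.7 FPKM in cKO libraries (log2 fold change −0.12). Pcdh9 overlapped as well, at 9.42 and 8.86 against 9.14 and 8.22 FPKM (−0.07), as did Pcdh1, at 9.66 and 11.48 against 11.47 and 9.88 FPKM (0.01), and Pcdh15, at 0.790 and 0.554 against 0.789 and 0.658 FPKM (0.05). Pcdh8 was 32.2 and 29.2 FPKM in controls and 34.6 and 38.1 FPKM in cKO libraries, above the controls without a call (log2 fold change 0.24, limma, adjusted p = 0.728). Pcdh10 was 6.91 and 5.68 against 5.19 and 4.48 FPKM (−0.32) and Pcdh11x 1.55 and 1.70 against 1.19 and 1.00 FPKM (−0.33), both below and not called. A difference in effect between Kdm2b and Rnf2 hippocampi was tested for 22 members. Of these, 0 had an adjusted p under 0.05 (limma), beside 0.684% of 11257 entries. At an unadjusted p under 0.05 there were 4, Pcdh8, Pcdh10, Pcdh19 and Pcdhb12. The share of all entries at that looser threshold is not given here, so the 4 are not read as an excess. The log2 difference was −0.53 for Pcdh8 (adjusted p = 0.105, limma) and −0.35 for Pcdh19 (adjusted p = 0.221, limma).

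Single isoforms of the clusters, all on chromosome 18, could be read in the cortical and Rnf2 tables. In the GENCODE annotation of GRCm38 a median of 53.5% of the exon bases of an alpha gene and 44.7% of those of a gamma gene are shared with another protocadherin, against at most 9.7% for beta genes, each of which is 1 exon. How reads on shared exons were assigned is not given in the sources used here, so the values of alpha and gamma isoforms are uncertain, and beta isoforms are near-identical paralogs in part.

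**Figure D4:**
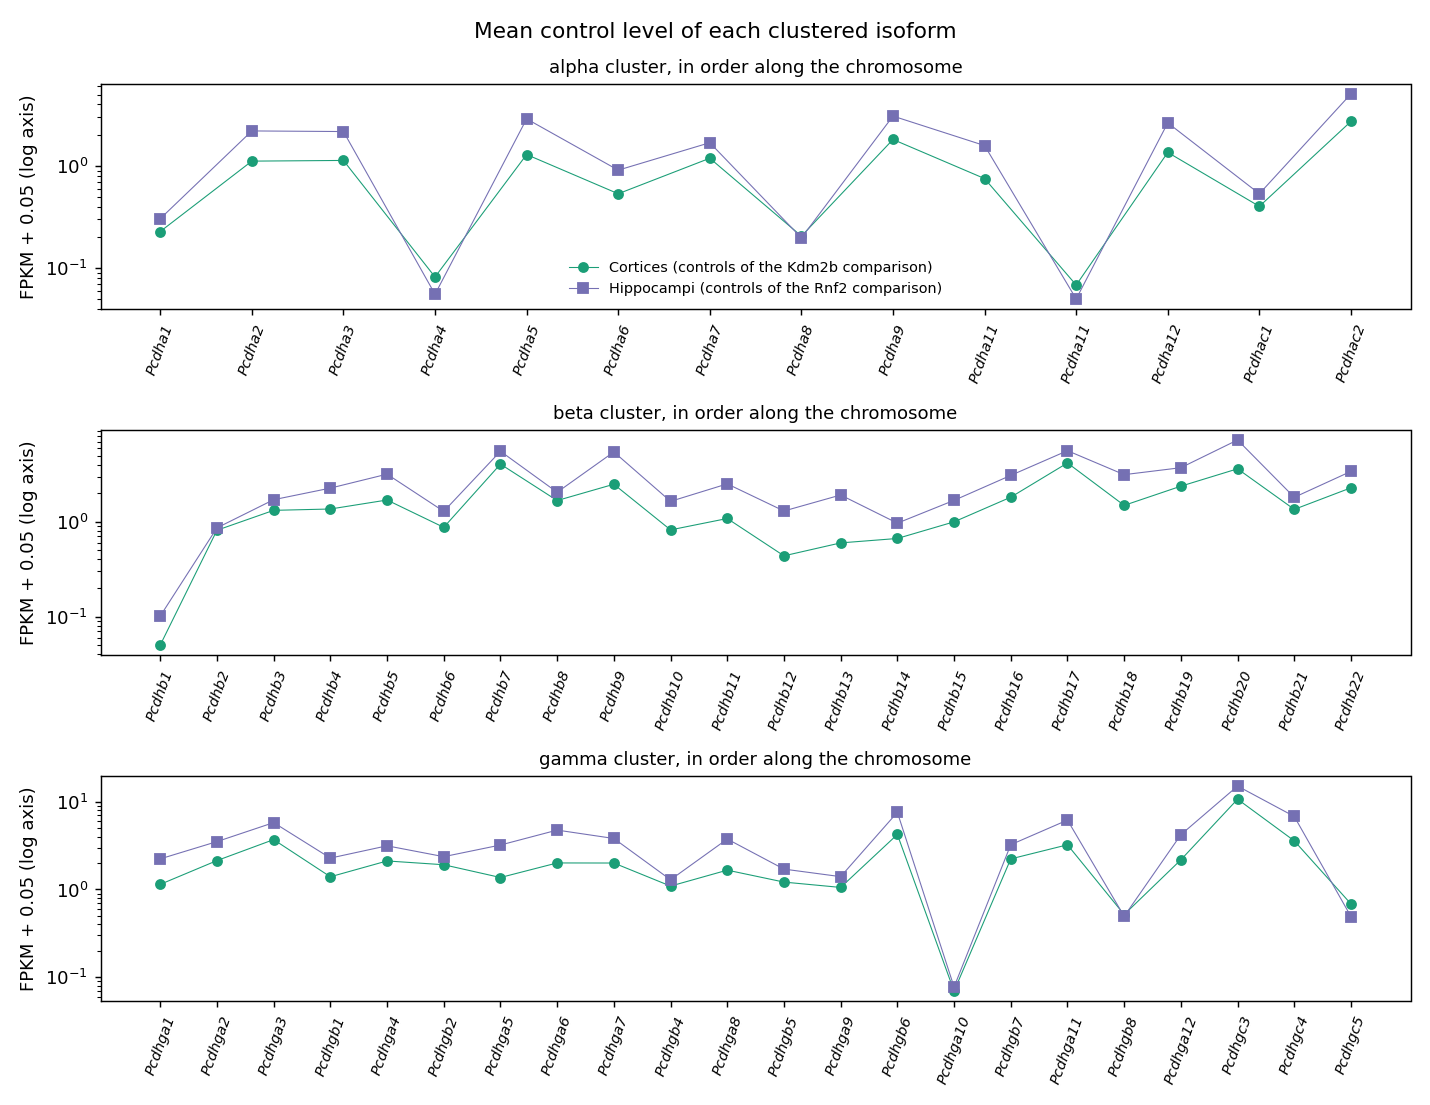
Mean FPKM + 0.05 (log axis) of each clustered isoform in control cortices (green) and control hippocampi of the Rnf2 comparison (purple), in order along the chromosome. The isoforms follow a like profile in both, with Pcdhgc3 the highest of all, Pcdhac2 the highest of alpha, and Pcdha4, the second Pcdha11, Pcdhb1 and Pcdhga10 near the floor.

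The clusters were expressed as uneven mixtures. In control cortices the summed level was 12.2 FPKM for alpha, 35.0 for beta and 49.1 for gamma. In control hippocampi of the Rnf2 comparison it was 22.7, 59.5 and 82.2 FPKM. The joined alpha and gamma entry averaged 323.6 FPKM in control hippocampi of the Kdm2b comparison, which were normalized separately. The reason for this gap was not tested, so the alpha and gamma sums are not read against the beta sum. Pcdhac2 and Pcdhgc3, C-type isoforms that escape random choice, took 21.9% and 21.6% of the alpha and gamma sums in cortices and 22.1% and 18.2% in those hippocampi. The highest beta isoform was Pcdhb17 in cortices (11.8% of the beta sum) and Pcdhb20 in those hippocampi (12.2%). Pcdhga10, Pcdha4 and Pcdhb1 were near absent. Across the 58 isoforms the levels of the 2 control groups had a Spearman correlation of 0.957, a description over isoforms that share exons, lengths and counting.

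The cluster sums overlapped between groups under both deletions. The alpha sum was 12.3 and 12.1 FPKM in cortical controls and 12.7 and 11.9 in cKO libraries, and the beta sum was 32.5 and 37.5 against 35.5 and 35.8 FPKM. The gamma sum was 46.7 and 51.5 against 57.3 and 48.4 FPKM, a ratio of 1.08. In Rnf2 hippocampi the ratio was 0.983 for alpha, 0.963 for beta and 1.01 for gamma.

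No isoform was called among 49 tested in cortices, where log2 fold changes ran from −0.32 to 0.37, or among 51 tested in Rnf2 hippocampi, where they ran from −0.51 to 0.30. The 3 isoforms with an unadjusted p under 0.05 in cortices, named after their values were seen, were Pcdha9 (1.87 and 1.66 against 1.30 and 1.14 FPKM), Pcdhga6 (1.75 and 2.16 against 3.13 and 2.53 FPKM) and Pcdhgc4 (3.54 and 3.51 against 4.86 and 4.14 FPKM). Their adjusted p values were 0.352, 0.343 and 0.353 (limma). The share of all tested genes with such an unadjusted p is not given here. Pcdhb7 and Pcdhb9, which fell in cKO neurospheres, had log2 fold changes of −0.21 and 0.13 in cortices and 0.29 and 0.08 in Rnf2 hippocampi, without a call.

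**Figure D5:**
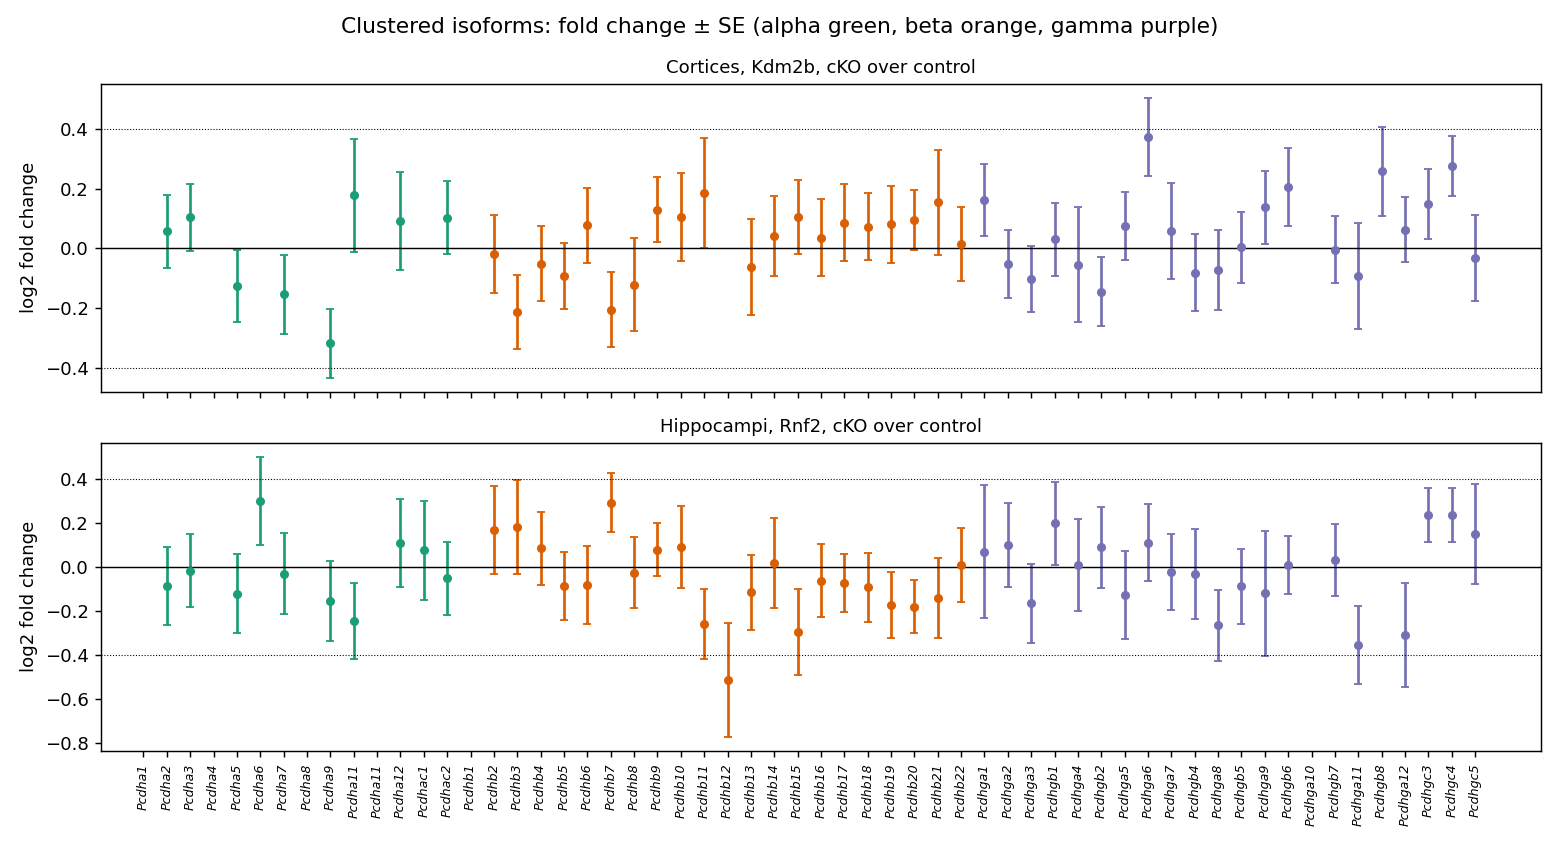
Log2 fold change (cKO over control, y axis) ± SE of each tested isoform (x axis, in chromosome order) in cortices (top) and Rnf2 hippocampi (bottom), coloured by cluster, with dotted lines at 0.4 in size. All points of the cortices lie within the lines, and Pcdhb12 in Rnf2 hippocampi at −0.51 lies outside them without a call; isoforms under 0.5 FPKM have no point.

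Regulators of cluster choice were read from a list of 22 genes (CTCF, cohesin and its loaders, DNA methylation and chromatin genes). For this list and those that follow, 3.89% of all tested entries were called higher and 2.25% lower in hippocampi. The shares higher and lower were 11.4% and 13.2% in neurospheres, 4.73% and 2.28% in cortices and 2.87% and 1.85% in Rnf2 hippocampi. In hippocampi 1 of 21 tested was called higher, Rest, a repressor of neuronal genes, at 2.82, 2.90 and 3.08 FPKM in controls and 4.54, 4.75 and 4.33 FPKM in cKO libraries (log2 fold change 0.49, limma, adjusted p = 0.0126). In neurospheres 4 of 21 were called higher and 0 lower. Dnmt1, the maintenance DNA methyltransferase, was 36.9 and 38.6 FPKM in controls and 70.3 and 75.0 FPKM in cKO libraries (log2 fold change 0.93, limma, adjusted p = 0.00212), and the cohesin genes Rad21, Smc1a and Pds5a had log2 fold changes of 0.44, 0.47 and 0.43. None of 22 was called in cortices or in Rnf2 hippocampi.

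Of 18 signalling partners of protocadherins, Ptk2b, a focal adhesion kinase that clustered protocadherins bind and inhibit, was called lower in both Kdm2b tissues. It was 11.4, 15.4 and 10.1 FPKM in control and 6.01, 5.06 and 7.93 FPKM in cKO hippocampi (log2 fold change −0.86, limma, adjusted p = 0.0170), and 1.02 and 1.28 FPKM in control and 0.324 and 0.426 FPKM in cKO cortices (log2 fold change −0.65, limma, adjusted p = 0.183). Ret was called higher in hippocampi (0.53) and Cyfip2, a member of the WAVE complex that delta2 protocadherins engage, lower in neurospheres (−0.44). No partner was called in Rnf2 hippocampi.

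Of 29 other cadherins, 3 of 25 tested were called higher in hippocampi and 1 lower. Celsr1, a cadherin of planar polarity, had a log2 fold change of 0.82, Cdh22 of 0.64, Cdh24 of 0.53 and Cdh11 of −0.43. In neurospheres 5 of 20 were called higher and 2 lower, with Cdh24 at 0.94, Cdh4 at 0.58, Cdh20 at 0.57, Cdh10 at −0.50 and Clstn3 at −1.28 the largest, and in cortices 2 of 25 were called higher, Cdh5 of endothelial junctions (0.77) and Cdh22 (0.51). None of 25 was called in Rnf2 hippocampi.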

How the data were processed

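RNA-seq tables of 18 libraries were used as deposited. For hippocampi and neurospheres, per the study's methods, trimming used cutadapt, alignment STAR and the mm10 genome, and the authors derived FPKM with Cufflinks 2.2.1. The submitters' processing notes list these tools, DESeq2, GRCm38 and mm10 for every library. How the authors made the deposited FPKM values of the cortical and Rnf2 tables, which carry Ensembl identifiers and gene lengths, is not given in the sources used here. There, 100% of nonzero values, once scaled by gene length and 1 factor per library, lay within 0.01 of a whole read. For hippocampi and neurospheres the depth of each library could not be recovered, beyond the general depth that the study's methods state. The tables had 0 columns of samples that could not be matched.

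Unnamed entries were dropped (2861 of 27180 in hippocampi, 2059 of 26293 in neurospheres), and where a name had several entries the one with the highest mean was kept. On log2(FPKM + 1), limma 3.58.1 in R 4.3.3 (lmFit, then eBayes with a trend) was run per table on entries averaging 0.5 FPKM or more. Adjusted p values are Benjamini-Hochberg values over every entry so tested. Calls used the study's thresholds on fold and unadjusted p. Whether effects differed between 2 tables was judged by a genotype by table term at an adjusted p under 0.05. The members and lists were chosen with earlier results of these data known. By the rule for named genes, joined entries and non-clustered members called in any comparison were given in full, other members by range or count, and of the lists at most 5 called genes per comparison; other members with values were singled out after these were seen. The fit of each table was tested on simulated data. The test of a difference was so tested only for Kdm2b against Rnf2 hippocampi, at an unadjusted p. The limma-voom fit was so tested only for cortices. Replicate numbers did not pair the libraries (correlations of deviations between −0.277 and 0.16).

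Alternatives were a pseudocount of 0.1, no filter, a filter at 1 FPKM, equal FPKM totals, median-ratio scaling, no trend, adjusted p values, no fold threshold, the replicate number as a block, each library left out, and limma-voom on the recovered reads. Summing the entries of a name and a crossed block were added after seeing the data. Where a group of 2 lost a library, the lone sample was assumed to vary like the other group.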

Additional observations from a re-analysis of the deposited data

Results flagged for a closer look

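The effect of the deletion differed between tables, by a test of the difference, for 6 protocadherins. Between hippocampi and neurospheres 5 of 18 members passed, near the 26.9% of all entries, and between hippocampi and cortices 1 of 19, beside 1.61%. For the first pair the log2 differences were −0.80 for Pcdh19, lower in hippocampi and not called in neurospheres, 0.65 for Pcdh9, 0.88 for Pcdhb4, 1.09 for Pcdhb7 and 1.54 for Pcdhb9, the last 4 with the lower effect in neurospheres. Between hippocampi and cortices it was −0.61 for Pcdh1, with the higher effect in cortices. Each table was normalized separately and tissue, culture and table cannot be told apart in these differences.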

How the results depend on the processing

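Pcdh19 was called in hippocampi under all 16 alternatives run for it, at −0.51 to −0.43. Without a fold threshold 4 of 25 members were lower in hippocampi, beside 11.5% of all entries, and in neurospheres 1 of 22 was higher, beside 18.2%. In neurospheres 5 were lower with adjusted p values, beside 10.2% of all entries. Median-ratio scaling gave 9, beside 13%, and rescaling to equal totals 2, beside 2.13%. Under that rescaling 670 of all entries were called higher and 261 lower, against 1392 and 1620. Leaving out each library gave 5 to 10 lower and 0 to 1 higher there, the 5 without cKO 2, when Pcdh19 was the 1 higher. For the counts in cortices, in Rnf2 hippocampi and with a library left out, the share of all entries is not given here. They are not read as an excess. In cortices a pseudocount of 0.1 gave 2 higher and 1 lower, and no fold threshold 3 and 1. There limma-voom on recovered reads gave 4 higher (Pcdh1, Pcdh12, Pcdhga6 and Pcdhgb8) and 3 lower (Pcdh17, Pcdh20 and Pcdha9). Rescaling and adjusted p values each left 0 higher, and leaving out libraries gave 0 to 2 higher and 0 to 1 lower. In Rnf2 hippocampi adjusted p values left 0 lower, limma-voom gave 2, and left-out libraries 0 to 2.

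Differences between hippocampi and neurospheres numbered 1 after rescaling, 9 at an unadjusted p under 0.05 and 4 to 9 with a library left out, the 9 without neurosphere cKO 1. Those between hippocampi and cortices numbered 0 without a filter, after rescaling, without a trend and with the replicate block, 4 at an unadjusted p, and 0 to 1 with a library left out. Between Kdm2b and Rnf2 hippocampi the counts were 4 and 0 to 1. For the counts at an unadjusted p, the share of all entries is not given here. The replicate block gave 10 lower in neurospheres, and a crossed pairing of them 11. Causes were not tested, and with 2 libraries a group the effects of low isoforms could not be measured closely.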
